A study of Homo sapiens with 4 samples.

Results

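The regions described here are those that the authors' deposited table assigns to genes of the mitochondrial respiratory chain and the ATP synthase. Members were found by symbol: every line whose gene starts with NDUF, UQCR or ATP5, or with COX followed by 4, 5, 6, 7 or 8, and the lines for SDHA, SDHB, SDHC, SDHD, CYC1 and CYCS. This gave 300 distinct regions on 302 lines for 95 genes, of 91107 distinct regions for 17301 genes in the whole table. Of the 300 regions, 84 overlapped the start of a member gene by the deposited distance and 216 lay away from it. The rule used names only and no measured value, and it also takes in assembly factors of complex I, tissue-restricted isoforms, paralogs and 2 read-through genes.

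The study profiled H3K27ac, an acetylation of histone H3 found at active promoters and enhancers, with ChIP-seq (sequencing of chromatin fragments pulled down by an antibody) in the human melanoma line A375. Per the labels, 2 libraries came from cells kept for 48 hours in 1 mM octanoate, which is a fatty acid of medium chain length, and 2 from cells kept as long with isopropanol as the vehicle. The labels do not say that the libraries of a group came from separate cultures, so the p-values measure the spread between these libraries, which may be technical. The deposited table holds 1 comparison. Each region has a mean level, a log2 fold change with a standard error, and p-values, but there are no values of single libraries. The header does not name the numerator of the fold change, so changes are called positive or negative and not gains or losses under octanoate. The depth of each library is unknown, and no spread between replicates could be computed. In such bulk chromatin, a change in the number of cells that carry the mark and a change in the mark per cell cannot be told apart. Of 9 preset melanocyte or melanoma markers, 6 had a region at their start in the deposited table, SOX10, PMEL, MITF and AXL among them, while MLANA, DCT and TYR had regions away from their starts only. Of 6 markers of keratinocytes, leukocytes, endothelium, fibroblasts and hepatocytes, 0 had a region at their start in the deposited table, and 5 had regions elsewhere, with levels up to 408 beside PTPRC.

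The respiratory chain carries electrons from NADH, through complex I, and from succinate, through complex II, by way of ubiquinone to complex III, cytochrome c and complex IV, where oxygen is reduced. Complexes I, III and IV pump protons across the inner mitochondrial membrane, and the ATP synthase uses the gradient to make ATP. Oxidation of fatty acids such as octanoate supplies NADH and other reduced carriers to this chain. Nearly all subunits are encoded in the nucleus, from housekeeping promoters known for binding sites of NRF1, of the ETS factor GABP and of YY1, and a core of subunits is encoded by mitochondrial DNA and lies outside the set.

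To show what these promoters look like, windows from 250 bases before to 50 bases after the start were taken from RefSeq (build GRCh38.p14; the submitters' processing notes name hg38). Windows were found for 75 of the 95 genes. Of these, 70 also had a region at distance 0 in the deposited table. For 70 of the 70, a window overlapped a region assigned to the gene. The same was seen for 3 genes without a region at distance 0: ATP5G2, COX7A2L and NDUFA4L2. All regions of these 3 genes are counted here as away from starts. Each window was searched on both strands for the ETS letters CCGGAAG, the YY1 letters AAGATGGCG, the letters TCAAGGTCA bound by estrogen-related receptors, the direct repeat bound by PPAR receptors, and the 10-letter palindrome of NRF1, also in a looser form with any base at its 2 central positions. The shares were set beside those of the 9247 genes in the deposited table that have a window and a tested region at their start, and of all 27305 genes with a window. Member shares are over all 75 genes, of which 70 had a region at distance 0, so they are not fully matched to the 9247. An ETS match was present for 21 member genes, or 28.0%, against 23.6% of genes with a start region and 12.2% of all genes. The looser NRF1 match was present for 17, or 22.7%, against 19% and 9.98%, and the exact one, which the looser form includes, for 5, or 6.67%, against 2.84% and 1.52%. A YY1 match was present for 9, or 12%, against 4.93% and 2.14%. The estrogen-related receptor letters were found for 1 member gene, SDHD, or 1.33%, against 0.173% and 0.432%, and the PPAR repeat for 0 of 75, against 0.0324% of genes with a start region. Counted together, 40 of the 75 genes (53.3%) had at least 1 match of the ETS, looser NRF1 or YY1 kind, against 41.1% and 21.4%.

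7 windows are shown 5′ to 3′ on the gene's strand, in lower case, with every match in capitals. SDHD, a membrane anchor of complex II (chr11:112086623-112086922, plus strand), held an exact NRF1, an ETS and an estrogen-related receptor match. ATP5J, a stalk subunit of the ATP synthase (chr21:25734855-25735154, minus strand), is shown because its region is shared with GABPA, the gene of the DNA-binding part of GABP, and its window held 1 YY1 and 2 ETS matches. COX5B, a subunit of complex IV (chr2:97645812-97646111, plus strand), held 2 ETS matches. NDUFAF4 (chr6:96897842-96898141, minus strand) and NDUFA2 (chr5:140647581-140647880, minus strand) had the highest and the lowest log2 fold change among member regions at starts. CYCS, the gene of cytochrome c (chr7:25125211-25125510, minus strand), and NDUFA4L2 (chr12:57240695-57240994, minus strand), whose region was the 1 called member, held 0 matches, as did NDUFA2. A match is a run of letters and not a shown binding site.
SDHD: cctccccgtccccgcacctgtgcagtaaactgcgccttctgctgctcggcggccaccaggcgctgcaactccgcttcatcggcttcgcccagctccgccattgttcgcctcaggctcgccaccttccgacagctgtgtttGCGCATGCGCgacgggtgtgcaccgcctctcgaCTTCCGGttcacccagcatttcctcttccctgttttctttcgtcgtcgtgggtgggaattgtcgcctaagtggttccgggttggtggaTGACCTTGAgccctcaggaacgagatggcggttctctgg
ATP5J: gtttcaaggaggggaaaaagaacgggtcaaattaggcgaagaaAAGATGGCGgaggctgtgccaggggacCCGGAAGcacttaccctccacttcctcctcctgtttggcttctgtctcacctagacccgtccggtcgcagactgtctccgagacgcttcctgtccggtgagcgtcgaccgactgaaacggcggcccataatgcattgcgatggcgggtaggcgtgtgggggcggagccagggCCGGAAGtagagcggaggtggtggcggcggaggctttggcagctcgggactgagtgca
COX5B: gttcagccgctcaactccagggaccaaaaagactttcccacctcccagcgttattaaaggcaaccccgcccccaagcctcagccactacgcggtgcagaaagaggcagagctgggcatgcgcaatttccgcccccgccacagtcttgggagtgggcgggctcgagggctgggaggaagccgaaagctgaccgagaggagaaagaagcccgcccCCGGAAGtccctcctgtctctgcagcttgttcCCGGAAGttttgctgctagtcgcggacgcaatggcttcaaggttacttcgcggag
NDUFAF4: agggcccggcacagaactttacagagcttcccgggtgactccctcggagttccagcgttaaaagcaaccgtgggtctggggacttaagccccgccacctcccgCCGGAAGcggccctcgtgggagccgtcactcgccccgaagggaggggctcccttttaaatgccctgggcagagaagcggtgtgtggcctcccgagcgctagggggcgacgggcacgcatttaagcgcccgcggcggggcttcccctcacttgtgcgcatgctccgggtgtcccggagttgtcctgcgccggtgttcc
NDUFA2: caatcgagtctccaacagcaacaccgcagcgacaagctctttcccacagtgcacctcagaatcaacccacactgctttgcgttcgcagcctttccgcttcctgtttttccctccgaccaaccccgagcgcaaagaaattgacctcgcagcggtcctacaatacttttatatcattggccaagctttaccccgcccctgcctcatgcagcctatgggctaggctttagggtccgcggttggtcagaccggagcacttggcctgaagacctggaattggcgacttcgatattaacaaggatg
CYCS: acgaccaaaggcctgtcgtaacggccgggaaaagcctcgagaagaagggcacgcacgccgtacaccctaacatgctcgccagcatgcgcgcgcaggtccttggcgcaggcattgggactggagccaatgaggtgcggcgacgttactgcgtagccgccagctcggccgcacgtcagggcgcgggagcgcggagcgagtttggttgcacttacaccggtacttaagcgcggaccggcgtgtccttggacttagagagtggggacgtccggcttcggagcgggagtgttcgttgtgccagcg
NDUFA4L2: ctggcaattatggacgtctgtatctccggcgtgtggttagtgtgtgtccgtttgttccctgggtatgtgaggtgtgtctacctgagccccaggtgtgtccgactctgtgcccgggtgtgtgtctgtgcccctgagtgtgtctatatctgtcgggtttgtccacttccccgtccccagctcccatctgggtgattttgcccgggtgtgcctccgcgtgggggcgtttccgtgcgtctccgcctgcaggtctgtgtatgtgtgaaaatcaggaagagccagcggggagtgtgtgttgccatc

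The comparison asked whether H3K27ac beside these genes differed between octanoate and vehicle cells. At gene starts, as set by the deposited distance, the member regions shared a small positive fold change and 0 of them passed the test. All 84 member regions at starts had a positive value in the authors' deposited table, with a log2 fold change from 0.05 at NDUFA2 to 0.73 at NDUFAF4, with a median of 0.33, a ratio of 1.26. The same held for nearly all starts: among the 9996 regions at starts with an adjusted p-value in the deposited table the median was 0.35, a ratio of 1.28, and 1.91% were negative. A region was called at an adjusted p-value under 0.05 in the deposited table (DESeq2 is the test tool the submitters' processing notes name), and the lowest adjusted value among the 84 was 0.168, against 0.86% called of all regions at starts. Without adjustment, 10 of the 84 (11.9%) had a p-value under 0.05 in the deposited table, all positive, a smaller share than the 19.2% of all regions at starts.

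The member starts differed little among themselves relative to their errors. Their log2 fold changes in the deposited table had an SD of 0.14 across the 84 regions, below the median standard error of a single region, 0.24, and the SD over all starts was 0.21. For 84 of 84 the 95% interval (from the standard error and the normal distribution) included the median of all starts, as it did for 98.4% of all starts in the deposited table. NDUFAF4, at 0.73 (interval 0.16 to 1.31), and NDUFA2, at 0.05 (-0.49 to 0.59), overlapped in the deposited table. Of the 84, 39 lay above the median of all starts and 45 below it.

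**Figure D1:**
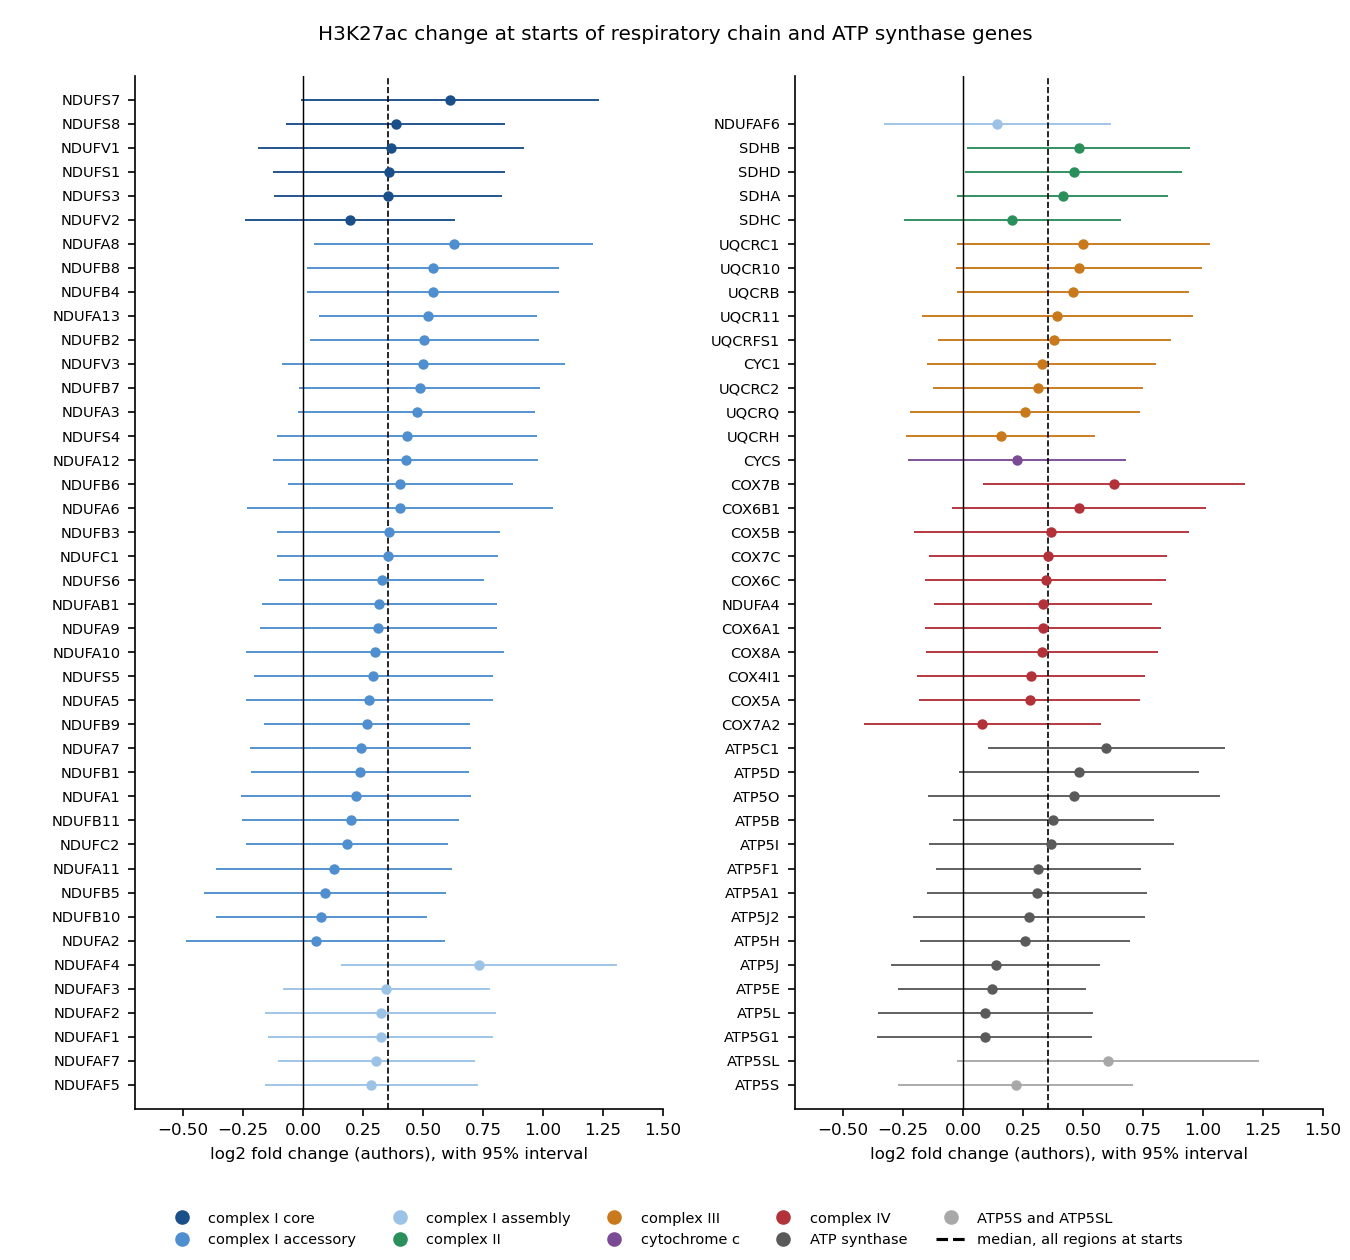
Log2 fold change of member regions at gene starts in the authors' deposited table (points) with their 95% intervals (bars), grouped by complex and ordered within each group; the solid line marks 0 and the dashed line the median of all regions at starts, 0.35. 1 member region is not drawn; every point drawn is positive, and every interval drawn crosses the dashed line.

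Complex I, the NADH dehydrogenase and the largest enzyme of the chain, contributed 37 regions at starts of its subunits, with a median log2 fold change of 0.35 in the deposited table and 0 called. Its 7 core subunits, which hold the flavin and the iron-sulfur clusters, had a median of 0.37 in the deposited table, from 0.20 at NDUFV2 to 0.61 at NDUFS7. NDUFS7, which carries the last iron-sulfur cluster before ubiquinone, had 0.61 ± 0.32 (± marks the standard error) in the deposited table, where its adjusted p-value was 0.279. The 30 accessory subunits had a median of 0.32 in the deposited table. Of these, 5 had an unadjusted p-value under 0.05 in the deposited table: NDUFA8 (0.63), NDUFB4 (0.54), NDUFB8 (0.54), NDUFA13 (0.52) and NDUFB2 (0.51). The lowest of the 30 in the deposited table were NDUFA2 (0.05 ± 0.28), NDUFB10 (0.08 ± 0.22) and NDUFB5 (0.09 ± 0.26). The 7 complex I assembly factors, which build the enzyme and leave it, had a median of 0.32 in the deposited table. NDUFAF4 was the highest of them and of all member starts, at 0.73 ± 0.29 (adjusted p-value 0.168 in the deposited table), and NDUFAF6 was the lowest of them at 0.14 ± 0.24.

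Complex II, the succinate dehydrogenase, links the tricarboxylic acid cycle to the chain and pumps no protons. Its catalytic subunits SDHA, with the flavin, and SDHB, with the iron-sulfur clusters, had log2 fold changes of 0.41 ± 0.23 and 0.48 ± 0.24 in the deposited table, and the membrane anchors SDHC and SDHD 0.21 ± 0.23 and 0.46 ± 0.23. The unadjusted p-values of SDHB (0.0415) and SDHD (0.0450) were under 0.05, and their adjusted values in the deposited table were 0.255 and 0.261. SDHC was the lowest of the 4, and the intervals of all 4 overlapped. Of the 11 other regions assigned to complex II genes, 3 had an adjusted p-value in the deposited table, with log2 fold changes of 0.03 and 0.13 beside SDHC and 0.40 beside SDHB.

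Complex III, which passes electrons from ubiquinol to cytochrome c, had 9 regions at starts with a median log2 fold change of 0.38 in the deposited table. They ran from 0.16 ± 0.20 at UQCRH, the hinge subunit, to 0.50 ± 0.27 at UQCRC1, a core subunit, and the lowest adjusted p-value was 0.293 in the deposited table. UQCRFS1, the Rieske iron-sulfur protein, had 0.38 ± 0.25, and CYC1, cytochrome c1, 0.33 ± 0.24 in the deposited table. The start of CYCS had 0.22 ± 0.23 in the deposited table (adjusted p-value 0.550). Regions further from CYCS, at distances of 30005 and 54452 bases, had 0.23 ± 0.27 and 0.40 ± 0.30 in the deposited table. A region at 26470 bases, too weak for an adjusted p-value, had 0.88 ± 0.49 in the deposited table. The 95% interval of each of these CYCS regions included 0.

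Complex IV, the cytochrome c oxidase, had 11 regions at starts (NDUFA4, first described as a complex I subunit, counted with it), with a median log2 fold change of 0.33 in the deposited table. COX7B was highest at 0.63 ± 0.28 (unadjusted p-value 0.0239, adjusted 0.210 in the deposited table) and COX7A2 lowest at 0.08 ± 0.25. The other 9, from COX5A to COX6B1, lay between 0.28 and 0.48 in the deposited table. The ATP synthase had 13 regions at starts with a median of 0.31 in the deposited table, the lowest of the 5 complexes. ATP5C1, the central stalk subunit of its catalytic part, was highest at 0.60 ± 0.25 (adjusted p-value 0.191 in the deposited table), and the 2 lowest were ATP5G1, a gene of the rotating ring, at 0.09 ± 0.23 and ATP5L at 0.09 ± 0.23. No test between the complexes was made. ATP5SL, which despite its symbol is not a subunit of the ATP synthase, had 0.60 ± 0.32 in the deposited table and the lowest mean level of the member starts, 38.1.

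Mean levels at member starts in the deposited table ran from 38.1 to 416 in the authors' normalized units, with a median of 98.1, against 87.8 for all tested starts. Since a wider region collects more reads, levels were also divided by width. Per kb of region, the median level was 28.2 for member starts (range 17.8 to 54.7) and 25.8 for all tested starts in the deposited table. Of the 84 member starts, 53 lay above that 25.8 per kb. Among the highest mean levels were those of UQCRH (416, or 38.1 per kb), NDUFB10 (386, or 50.6 per kb), ATP5E (318, or 32.6 per kb) and NDUFAF3 (273, or 34.4 per kb) in the deposited table. All 4 of these regions are shared with at least 1 other gene, for example RPS2, a ribosomal protein gene, at NDUFB10. The 5 lowest were ATP5SL, NDUFS7 (42.9), NDUFA6 (43.7), NDUFV3 (45.2) and ATP5O (46.8), with 21.2 to 26.1 per kb in the deposited table.

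The fold change was smaller where the level was higher. Across the 84 member starts the rank correlation of mean level and log2 fold change was -0.48 in the deposited table, and across the 9996 tested starts it was -0.30. This describes regions that share their libraries, so no p-value is given. The standard error also fell with level, with a rank correlation of -0.88 across the 84. What part level or width has in the order of the fold changes was not tested.

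**Figure D2:**
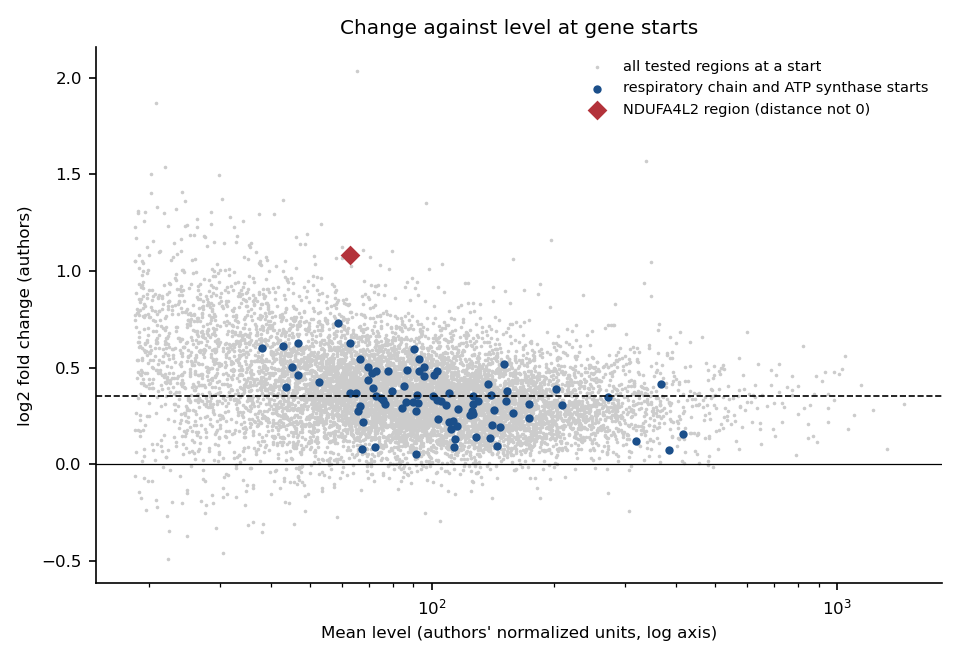
Log2 fold change against mean level (log axis) for all 9996 tested regions at gene starts (grey), the 84 member starts (blue) and the NDUFA4L2 region, whose deposited distance is not 0 (red diamond). The dashed line is the median of all starts, 0.35. Member starts lie within the spread of all starts, lower at high levels. The NDUFA4L2 region, at 1.08, lies above all 84 member starts.

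Many of these starts are shared with another gene. Of the 84 regions, 46 (54.8%) are listed with 2 or more genes in the deposited table, against 20.5% of all 10642 regions at starts. Members were found by gene name, so a region listed with more genes had more ways to enter the set. The 20.5% is a share over regions without such a choice, so the 2 shares are not alike. A read-through symbol counts as a gene here, as at the starts of ATP5J2 and NDUFC2. Some partners also act in mitochondria or on their genes: MRPL47 (with NDUFB5) and MRPL36 (with NDUFS6) encode proteins of the mitochondrial ribosome, TIMM8B (with SDHD) an import factor, and GABPA (with ATP5J) a regulator of respiratory genes. These 4 were singled out by name after the values were seen. The ATP5J and GABPA region had a log2 fold change of 0.14 ± 0.22, and the NDUFB5 and MRPL47 region 0.09 ± 0.26 in the deposited table. Shared member starts had a median log2 fold change of 0.32 and those listed with 1 gene 0.37 in the deposited table. Over all tested starts the same values were 0.32 and 0.36, close to those of the members. Shared member regions were wider, with a median of 3940 bases against 2956.5. Over all tested starts, shared regions were also wider, with 3877 bases against 3177.

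By motif, the 17 member genes with a looser NRF1 match had a median log2 fold change at their start region of 0.43 in the deposited table, and the 53 without it 0.32. The 9 genes with a YY1 match had 0.43 against 0.33 for the others, and the 21 with an ETS match 0.35 against 0.35. The 5 with an exact NRF1 match had 0.54 and the 65 without it 0.33. These differences were not tested.

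Among all 143 member regions with an adjusted p-value, 1 was called in the deposited table, or 0.699%, against 1.67% of all tested regions. It was the region assigned to NDUFA4L2 (chromosome 12, 57238702 to 57241175), a paralog of NDUFA4 known as a hypoxia-induced gene that lowers complex I activity. Its mean level was 62.7, or 25.3 per kb, and its log2 fold change 1.08 ± 0.26 (interval 0.57 to 1.60), a ratio of 2.12, where the deposited p-values were 3.75e-05 before and 0.0104 after adjustment. The deposited distance to the start was -1364 bases, but a RefSeq window at a start of the gene lay inside the region. The common form NDUFA4 had 0.33 ± 0.23 at its own start in the deposited table. Over all tested regions the median was 0.32. With it subtracted, the NDUFA4L2 value was 0.76 and its adjusted p-value 0.388, so the call did not outlast centring. How many of all 608 called regions keep their call after centring is not given. The loss is therefore not shown to be particular to NDUFA4L2.

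Other isoforms and paralogs lacked a region over their start by the deposited distance. For 6 pairs of a ubiquitous form and its relative, the region nearest to each start was compared as level per kb: the ubiquitous form was higher in 6 of 6, with 20.2 to 38.1 per kb against 15.1 to 25.3 per kb for its relative in the deposited table. By the deposited distance, all 6 ubiquitous forms had a region over the start and 0 of 6 relatives did. Each pair thus sets a region at a start against one away from it by that distance. For NDUFA4L2, however, a RefSeq window at a start of the gene lay inside the region. Over all tested regions the median level was 25.8 per kb at starts and 17.3 per kb away from them in the deposited table. The order within pairs is thus also that of the 2 kinds of region, as the deposited distance sorts them. COX4I2, the isoform of COX4I1 known from lung, had its nearest region 3244 bases away, with a level of 18.4 per kb against 32.9 for COX4I1 in the deposited table. COX7A1, the heart and muscle form, had 1 region, 17526 bases from its start, with 15.1 per kb against 24.1 for COX7A2. COX7B2 had a region of 313 bases at a distance of 37 bases, too weak for an adjusted p-value in the deposited table. NDUFA4L2 came nearest to its relative, with 25.3 per kb against 27.9 for NDUFA4. COX7A2L, also counted among the isoforms and paralogs, was not paired. Its nearest region had 30.3 per kb in the deposited table, above the 24.1 of COX7A2, so the order found depends on which genes were paired.

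COX6B2, the testis form of COX6B1, had 0.91 ± 0.38 at a region 292 bases from its start, with p-values of 0.0161 before and 0.183 after adjustment in the deposited table. The region beside UQCRHL, a near-identical copy of UQCRH, had 0.62 ± 0.23 (adjusted p-value 0.125 in the deposited table). It spans 8738 bases and lies 7729 bases from the UQCRHL start, so the assignment rests on position only. A region 23398 bases from COX4I2 had 0.63 ± 0.32 (adjusted p-value 0.277) in the deposited table. COX7A2L, which joins complexes III and IV, had 0.40 ± 0.24 and a level of 30.3 per kb in a region that holds a RefSeq window of the gene, and -0.02 ± 0.34 and 0.08 ± 0.26 in the 2 other tested regions assigned to it. The 7 tested regions of these isoforms and paralogs had a median of 0.62 in the deposited table, and 3 of the 7 an unadjusted p-value under 0.05, but a list of 7 with values from -0.02 to 1.08 supports no statement about the class.

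Of the 216 member regions away from starts, 59 had an adjusted p-value in the deposited table, with a median log2 fold change of 0.29 against 0.31 for all tested regions away from starts. Of these 59, 51 were positive and 8 negative, or 86.4% positive against 83.2% in the whole table. Unadjusted p-values under 0.05 were found for 18 of the 143 tested member regions (12.6%), 17 positive and 1 negative, against 18.4% of all tested regions in the deposited table. The 1 negative region carries the read-through gene NDUFC2-KCTD14 and KCTD14 (chromosome 11, 78030098 to 78032691), at 47175 bases from the read-through's start, with -0.60 ± 0.27 (adjusted p-value 0.212 in the deposited table). Regions beside NDUFB7 (0.95 ± 0.39) and UQCRC1 (0.84 ± 0.37), at 1739 and 3702 bases from their starts, had unadjusted p-values of 0.0157 and 0.0218 in the deposited table. The adjusted values of both, 0.182 and 0.204, were above the threshold. Members with levels of at most 18.2 carried no adjusted p-value in the deposited table (157 of 300 regions). Of these, 5 had an unadjusted p-value under 0.05, 3 positive and 2 negative. The region 5340 bases from UQCR10 had 1.36 ± 0.41 (unadjusted p-value 8.93e-04 in the deposited table), one 6930 bases from COX6A1 had 1.67 ± 0.61 (0.00603), and one 113634 bases from UQCRFS1 had 1.07 ± 0.44 (0.0144). The negative ones were a region of level 1.83 at 178902 bases from the assembly factor gene NDUFAF2, with -3.22 ± 1.35 (0.0171), and one over 2 Mb from UQCRFS1, with -1.93 ± 0.92 (0.0367). UQCR10 and COX6A1 encode small subunits of complexes III and IV, and these regions were singled out after their values were seen.

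Regions were spread unevenly over the genes, and 35 of 95 genes had 1 line in the deposited table while the median was 2. UQCRFS1 had 46, NDUFV2 18, COX7C 12, NDUFAF6 11 and NDUFA4 9. NDUFV2, a core complex I subunit, had 7 tested regions with log2 fold changes from -0.11 to 0.29 in the deposited table, 0 of them called. COX7C had 5 tested regions, from -0.13 at 289813 bases to 0.50 at 969398 bases, with 0.35 at its start in the deposited table. NDUFA4 had 3, with 0.33 at its start and 0.02 and 0.36 at 1220233 and 1227849 bases. NDUFAF6 had 4 tested regions, from 0.14 to 0.49 in the deposited table. A gene name given at such a distance does not show that the region acts on the gene.

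The regions assigned to UQCRFS1 stood apart by position, an observation made after the values were seen. Of its 46 regions, 17 lay within 2 Mb of its start, with a median log2 fold change of 0.12 in the deposited table and 15 of 17 positive. The other 29 lay over 2 Mb away, between positions 26695869 and 27189709, in the centromeric part of chromosome 19. There 27 of 29 (93.1%) had a negative log2 fold change, with a median of -1.19 and values from -2.54 to 0.78 in the deposited table. These 29 regions are narrow, with a median of 260 bases, and weak, with mean levels from 0.438 to 4.31. Over the table, 17738 regions had levels in that range. Of these, 47.3% were negative, with a median log2 fold change of 0.06 in the deposited table. Their median level was 3.31, against 1.26 for the 29 regions, so the sets share a range but are not matched for level. The standard errors of the 29 regions ran from 0.79 to 2.52, 1 had an unadjusted p-value under 0.05 and 0 had an adjusted one. The 49 other member regions in that range of level were negative in 55.1% of cases, with a median log2 fold change of -0.14. Their median level, 3.35, was also higher than that of the 29 regions. What part the low level has in the negative values was not tested. The start of UQCRFS1 itself had 0.38 ± 0.25 in the deposited table.

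**Figure D3:**
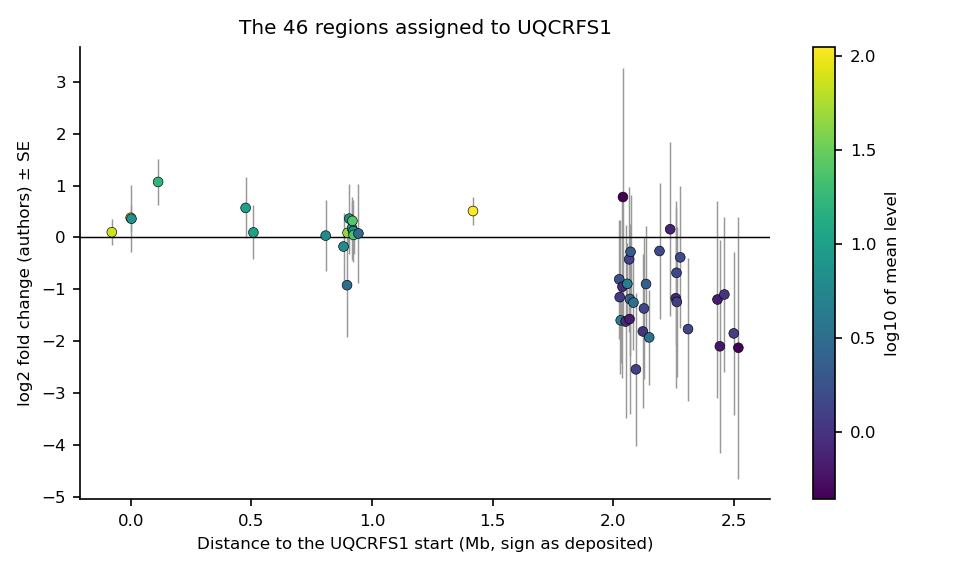
Log2 fold change with its standard error (bars) for the 46 regions assigned to UQCRFS1 against the deposited distance to its start in Mb, coloured by the log10 of mean level. Of the 29 regions over 2 Mb away, with levels up to 4.31, 27 are negative, and 15 of the 17 nearer ones are positive.

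Genes that work beside the chain had similar medians. Assembly factors outside the naming rule had 38 regions at starts with a median log2 fold change of 0.28, 14 regions at starts of tricarboxylic acid cycle genes had 0.28, and 12 at starts of regulators such as NRF1, GABPA, PPARGC1A and TFAM had 0.29 in the deposited table. All of these starts were positive and 0 were called. Their unadjusted p-values were under 0.05 for 4 assembly factors (10.5%), 0 cycle genes and 3 regulators (25%) in the deposited table, against the 19.2% of all starts. The GABPA region is the one also counted for ATP5J. Away from starts, 1 region of these lists was called in the deposited table: it lies 37046 bases from MDH2, the malate dehydrogenase of mitochondria, with 0.83 ± 0.22 (adjusted p-value 0.0262). With the median of all tested regions subtracted, its adjusted p-value was 0.711.

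Some proteins of the set stand in the table under older symbols that the rule does not take in. ATPIF1, the inhibitor of the ATP synthase, had 0.54 ± 0.26 at its start (unadjusted p-value 0.0354, adjusted 0.240) in the deposited table. The complex I assembly factor listed as C17orf89 had 0.26 ± 0.23, and USMG5, a small ATP synthase subunit, 0.28 ± 0.21. These are within the range of the member starts.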

How the data were processed

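H3K27ac chromatin immunoprecipitation sequencing of A375 cells was described from 1 table that the authors deposited. Per the submitters' processing notes, Trim Galore, cutadapt, FastQC, Bowtie2, Picard, MACS2, featureCounts, DESeq2, bedtools 2.29.1 and hg38 were used, and their roles and parameters are not given in the sources used here. Per the file headers, the authors give for each region a mean level (a normalized signal whose scaling is not named), a log2 fold change with its standard error on the log2 scale, a score (the ratio of those 2 values), and a p-value with an adjusted p-value. The distance to the assigned gene is also deposited, and 0 was read as overlap with a start. An adjusted p-value of 1 was read as not computed. No column of single libraries was set aside (0).

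With no values of single libraries, no test was rerun, as the design provided for: calls are the authors' adjusted p-values under 0.05, adjusted over all tested regions, 36436 in number. Lines that repeat a region were merged. In centring, the median of tested regions was subtracted, p-values were taken from the normal distribution with the authors' standard errors, and Benjamini-Hochberg adjustment was repeated over the same regions. Centring and adjustment were tested on simulated data. Named regions were the called member, the 5 extremes of fold change and of mean level at starts, complex II and cytochrome c genes, isoforms and paralogs, and the 5 genes with most regions, each where an adjusted p-value was given. Others, among them regions with an unadjusted p-value under 0.05 and the extremes of each complex, were named after their values were seen. The values of 1 member gene are not reported here by name, though it is counted. The members and lists were chosen with earlier results of these data known. Symbols were matched to RefSeq for 94 of 95 genes. Python 3.11.15, pandas 2.3.3, scipy 1.17.1 and matplotlib 3.10.9 were used.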

Additional observations from a re-analysis of the deposited data

How the results depend on the processing

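The 1 call among members was kept when p-values were adjusted over all distinct regions (adjusted p-value of NDUFA4L2 0.0259) and when lines were counted. It became 0 at a threshold of 0.01, after centring, for subunits and cytochrome c only, at a mean level of at least 100, and without isoforms and paralogs, the last 3 by leaving NDUFA4L2 out. The median log2 fold change of 0.33 became 0.27 with no filter on level, and 0.29 with no filter and without the UQCRFS1 regions over 2 Mb away, and moved less in the other 5 settings. The share of positive regions, 94.4%, became 72.3% with no filter, 79.3% with no filter and without those UQCRFS1 regions, 100% at a mean level of at least 100 and at starts only, 97.4% for subunits and cytochrome c only, and 51.7% after centring, which places the members evenly around the table's median. The cause of the low share among weak regions was not tested. The median level at starts of 98.1 is 28.2 when expressed per kb, by construction.

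Centring turned the sign of 28 of 59 named regions: NDUFA2 (-0.27), NDUFB10 (-0.25), COX7A2 (-0.24), ATP5G1 (-0.23), NDUFB5 (-0.23), ATP5E (-0.20), UQCRH (-0.17), SDHC at its start (-0.12) and at 15420 and 46593 bases (-0.19 and -0.30), CYCS at its start (-0.10) and at 30005 bases (-0.090), COX7A2L at 24948 bases (-0.24), 2 NDUFAF6 regions (-0.19 and -0.18 at its start), 6 of NDUFV2 (-0.23, -0.19, -0.19, -0.13 at its start, -0.043 and -0.033), 4 of UQCRFS1 (-0.28, -0.23, -0.22 and -0.0030), 2 of COX7C (-0.13 and -0.021) and NDUFA4 at 1220233 bases (-0.30). None of these was called before or after. Leaving out isoforms and paralogs only, and leaving out the UQCRFS1 regions over 2 Mb away, were chosen after seeing the data. No paired analysis was possible because single libraries have no values in the authors' file, and for the same reason no library could be left out. No adjusted p-value is given for 157 of 300 member regions, all with mean levels of at most 18.2, and depth per library is unknown.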
